A study of Rattus norvegicus with 16 samples.

Results

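The transferases of conjugation are the glucuronosyltransferases (UGT), the glutathione transferases (GST) and the sulfotransferases (SULT). They were taken as every gene of the liver expression table whose symbol begins with Ugt1a, Ugt2a, Ugt2b, Ugt3a, a GST class letter and number, or Sult followed by a class number and letter. This gave 53 of 17544 genes, of which 18 were UGT, 22 GST and 13 SULT genes. The rule used symbols only and no measured value, although it was chosen with earlier results of these data known. The livers came from male SD rats, an outbred laboratory strain, which were injected intraperitoneally for 28 days with saline or xylazine. This sedative of veterinary practice activates alpha-2 adrenergic receptors. Saline, 10 mg/kg, 20 mg/kg and 40 mg/kg xylazine were each given to 4 of the 16 animals sequenced, with 1 library of liver messenger RNA per animal. The study's stated subject was liver injury by xylazine.

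The 3 families make drugs, hormones and bilirubin more soluble in water by joining them to glucuronic acid, glutathione or sulfate, so that bile or urine can carry them away. Glucuronosyltransferases sit in the endoplasmic reticulum and draw on UDP-glucuronic acid. Sulfotransferases and most glutathione transferases are cytosolic, and the sulfate donor is PAPS. In liver many of these genes are read by the receptors AHR, CAR and PXR and by the factor NRF2. All 8 Ugt1a genes belong to a single locus in which each has its own start and first exon and all share the remaining exons.

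Library totals lay between 16059922 and 16956867 estimated reads, so that depth differed little. The hepatocyte marker list, with albumin and transthyretin at its head, summed to between 152620 and 203880 CPM over the libraries, where CPM are read counts scaled to a common library total. Some libraries held the highest level of many genes. Xylazine 20 replicate 3 held the highest TPM of the 16 libraries for 27.8% of the 12732 genes tested but for only 7 of the 48 transferases tested. Xylazine 40 replicate 4 held it for 9.36% of all genes and for 15 of the 48 transferases, 9 of them UGT genes, and xylazine 40 replicate 1 held it for 10.8% of all genes and 6 transferases. The family sums, family counts and genes that rose are given with and without xylazine 40 replicate 4.

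The sequence before the start of a gene is shown for 6 of the members that the results turn on. Ugt1a2 and Gsta3 rose with dose. Ugt1a1 and Gsta1 are abundant relatives that were not called, Ugt1a3 lay the same way as Ugt1a2, and Ugt2b was high or nearly silent by animal. Each sequence is the 250 bases before the annotated start, 5′ to 3′ on the strand of the gene, from the RefSeq promoter table of build GRCr8. They lie at chr9:96248893-96249142 (Ugt1a1, plus strand), chr9:96238769-96239018 (Ugt1a2, plus), chr9:96227884-96228133 (Ugt1a3, plus), chr9:31216533-31216782 (Gsta1, minus), chr9:31154739-31154988 (Gsta3, plus, the first of its 2 annotated starts) and chr14:20985199-20985448 (Ugt2b, plus). Capitals mark matches, on either strand, to 4 short motifs.
Ugt1a1: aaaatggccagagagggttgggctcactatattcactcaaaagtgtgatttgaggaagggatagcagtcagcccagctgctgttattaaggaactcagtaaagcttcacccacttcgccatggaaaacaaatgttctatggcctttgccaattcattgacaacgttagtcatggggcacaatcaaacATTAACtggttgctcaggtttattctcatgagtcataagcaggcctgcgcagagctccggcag
Ugt1a2: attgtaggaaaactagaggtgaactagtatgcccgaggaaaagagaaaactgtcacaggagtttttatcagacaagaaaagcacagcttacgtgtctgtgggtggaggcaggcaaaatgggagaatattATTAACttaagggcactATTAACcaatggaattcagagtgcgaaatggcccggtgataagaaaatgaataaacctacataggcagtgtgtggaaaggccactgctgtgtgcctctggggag
Ugt1a3: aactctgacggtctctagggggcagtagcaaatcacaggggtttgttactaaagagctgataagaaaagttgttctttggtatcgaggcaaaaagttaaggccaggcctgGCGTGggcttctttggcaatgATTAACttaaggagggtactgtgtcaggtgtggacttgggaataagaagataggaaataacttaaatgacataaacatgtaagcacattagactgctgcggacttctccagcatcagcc
Gsta1: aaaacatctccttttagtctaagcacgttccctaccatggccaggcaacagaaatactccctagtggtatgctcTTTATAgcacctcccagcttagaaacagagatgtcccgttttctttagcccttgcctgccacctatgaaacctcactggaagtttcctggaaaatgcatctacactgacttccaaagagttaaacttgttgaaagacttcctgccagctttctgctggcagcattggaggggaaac
Gsta3: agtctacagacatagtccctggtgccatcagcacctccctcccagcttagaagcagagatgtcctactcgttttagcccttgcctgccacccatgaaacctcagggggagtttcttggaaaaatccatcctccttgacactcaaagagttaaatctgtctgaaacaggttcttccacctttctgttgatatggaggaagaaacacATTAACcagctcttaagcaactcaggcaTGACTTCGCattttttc
Ugt2b: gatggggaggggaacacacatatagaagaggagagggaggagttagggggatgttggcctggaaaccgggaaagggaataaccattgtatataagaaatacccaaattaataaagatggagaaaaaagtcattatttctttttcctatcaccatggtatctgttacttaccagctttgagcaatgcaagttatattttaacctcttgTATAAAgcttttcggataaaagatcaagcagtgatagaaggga
The motifs searched were the core of the antioxidant response element TGACNNNGC, the core of the xenobiotic response element GCGTG, the HNF1 core GTTAAT and the TATA box TATAAA, each also read as its reverse complement. In Ugt1a2 the HNF1 core stood at 2 places, 98 and 115 bases before the start, and in Ugt1a1 at 1 place, 57 bases before it. Ugt1a3 held an HNF1 core 113 bases and a GCGTG 135 bases before its start. Gsta3 held the antioxidant core as TGACTTCGC 8 bases before its start and an HNF1 core 39 bases before it. Gsta1, with 64.4% of its window identical to that of Gsta3 once the 2 were aligned, held neither. The window before the other annotated start of Gsta3 held a GCGTG and no antioxidant or HNF1 core. Ugt2b and Gsta1 held a TATA box match each, on opposite strands. RefSeq listed all 53 members, 3 of them under another symbol (Ugt2b17 as Ugt2b1, Ugt3a2 as Ugt3a1 and Gstm3l as Gstm3), and its promoter table held 47 of them in 49 windows. The HNF1 core was in 5 of 16 UGT windows, 1 of 21 GST windows and 2 of 12 SULT windows, against 6.45% of all 33469 promoters. The antioxidant core was in 5 of the 21 GST windows and in no UGT or SULT window, against 10.1% of all promoters. The 5 were those of Gsta3, Gstm5, Gstm7, Gstp1 and Gstz1, and of these genes only Gsta3 was called in any comparison. GCGTG was in 11 of the 49 windows (25.9% of all promoters) and TATAAA in 12 (12.9%), and in Gstm5 an antioxidant core and a GCGTG core overlapped. A match in these letters is a description and not a binding site.

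Levels are given in TPM, a share of all transcripts that corrects for transcript length and so allows genes to be compared with each other. The GST genes together made up the largest pool, with 10324 ± 621 TPM in saline (SD, n = 4). The SULT genes summed to 4504 ± 516 TPM and the UGT genes to 3432 ± 1042 TPM. At 40 mg/kg the sums were 10829 ± 1168, 4488 ± 619 and 3311 ± 1708 TPM. All 53 genes together took 1.83% of TPM in saline and 1.85%, 1.76% and 1.86% at 10, 20 and 40 mg/kg. In each family the dose groups overlapped in their sums, and at 40 mg/kg each mean differed from that of saline by less than the saline SD. For UGT that SD was wide through the gene Ugt2b. Without that gene the saline SD was 169 TPM, the UGT mean at 40 mg/kg was higher by more than this, and the groups still overlapped. Without xylazine 40 replicate 4 the sums at 40 mg/kg were 10322 ± 711 (GST), 4787 ± 194 (SULT) and 2458 ± 101 TPM (UGT, n = 3). The animal removed was the 1 at 40 mg/kg with a high level of Ugt2b, against 3 in saline. Without Ugt2b the UGT sum was 2202 ± 169 TPM in saline and 2649.5 ± 425 TPM at 40 mg/kg. At 40 mg/kg without that animal too it was 2441 ± 101 TPM (n = 3). Within bulk liver, fewer cells of a type and less RNA per cell cannot be told apart.

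**Figure D1:**
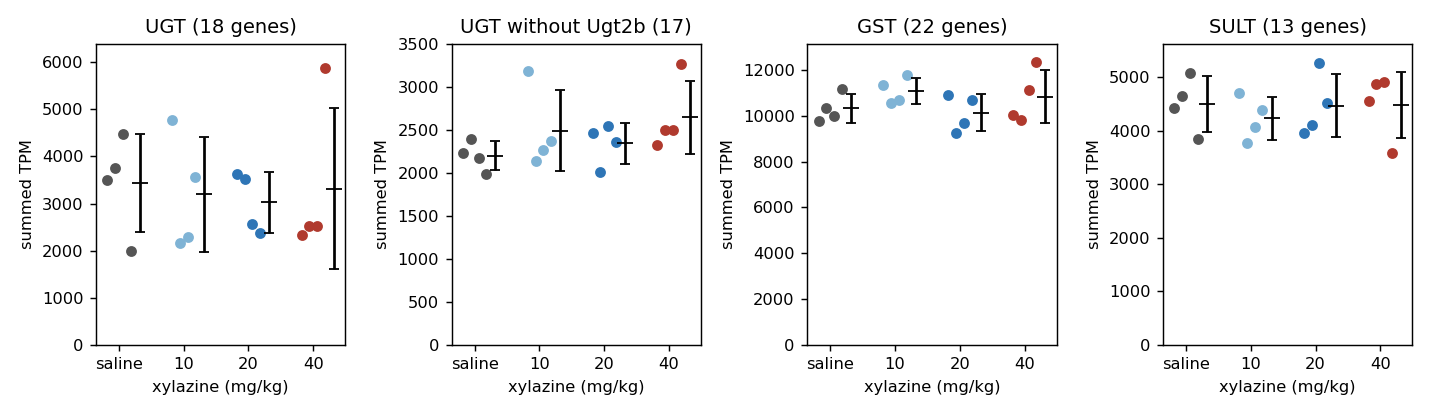
Summed TPM of each family per animal (points) with the group mean and SD (bars) for saline and 10, 20 and 40 mg/kg xylazine, with the UGT sum also shown without the gene Ugt2b. Leaving out Ugt2b narrows the saline UGT sum from an SD of 1042 to 169 TPM, and xylazine 40 replicate 4 is the highest point of the UGT and GST panels.

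A few genes carried each pool. Among GST genes the mu-class Gstm1 and Gstm2 held on average 21.3% and 21.1% of the family's TPM, and the alpha-class Gsta2, Gsta1 and Gsta5 held 20.5%, 12.7% and 10.1%. Sult1e1, the estrogen sulfotransferase, held 44.2% of SULT TPM, ahead of the phenol sulfotransferase Sult1a1 with 17.3% and the hydroxysteroid sulfotransferase Sult2a1 with 15.9%. Among UGT genes the shares averaged over animals were 25.1% for Ugt2b15, 22% for Ugt2b35 and 19.6% for Ugt2b. The share of Ugt2b ran from 0.4% to 51.6% between animals, and its mean level of 816 TPM was above those of Ugt2b15 (754 TPM) and Ugt2b35 (672 TPM). The genes that rose with xylazine were minor members. Gsta3 held on average 0.259% of GST TPM, Ugt1a2 0.0272% of UGT TPM and Sult4a1 0.0352% of SULT TPM.

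Differences between groups were tested with edgeR's quasi-likelihood test over all 12732 genes that passed a filter on low counts. A gene is called changed where the Benjamini-Hochberg adjusted p was under 0.05. Of the 53 members 48 passed the filter, 16 UGT, 21 GST and 11 SULT genes. Ugt2a1, Ugt3a2, Gstm6l, Sult1d1 and Sult5a1 did not, with mean levels between 0.00375 and 0.246 TPM. A gene can pass the filter through the groups where it is high alone, as Sult4a1 and Ugt1a2 did. Counts over the 48 therefore describe those genes and support nothing further. At 40 mg/kg against saline 1 of the 48 changed, Sult4a1, which rose, where 1.11% of all genes tested changed and 0.471% rose. At an unadjusted p under 0.05 there were 8 higher and 5 lower members, where 16.2% of all genes reached that level. The log2 fold change was positive for 29 members and negative for 19, with a median of 0.08, and the median over all genes was 0.00. Its median size was 0.20 in the members and 0.15 over all genes. The members that reached an unadjusted p under 0.05 were 8 of 48 at 40 against 10 mg/kg (5 higher, 3 lower) and 10 for the linear trend over dose (6 higher, 4 lower), where 13.3% and 18.8% of all genes did.

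Groups were also set side by side by their ranges of scaled counts, with no test. At 40 mg/kg every animal lay above every saline animal for 4 of the 48 members, Sult4a1, Ugt1a2, Ugt1a3 and Ugt1a9, where 4.45% of all genes did so, and below for 2, Gsta6 and Gstm7, where 4.85% did so (9.30% in all). At 20 mg/kg this held for Sult4a1 and Gsta3 upward (2.29% of all genes) and for Gstm1 downward (2.26%, and 4.55% in all). At 10 mg/kg it held for none of the 48 members, and for 1.09% of all genes upward and 1.12% downward (2.21% in all). Between 40 and 10 mg/kg it held for Sult4a1, Ugt1a3 and Sult2b1 upward (3.53% of all genes) and for Gsta6 downward (4.48%, and 8% in all).

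Counts and medians at 40 mg/kg against saline describe the families, and differences between families were not tested. Of the 16 UGT genes 13 were positive, and the median log2 fold change was 0.39. Without xylazine 40 replicate 4 the count was 12 and the median 0.09. Of the 21 GST genes 11 were positive with a median of 0.04, and without that animal 9 were positive with a median of -0.05. Of the 11 SULT genes 5 were positive with a median of -0.18, and without that animal 3 were positive with a median of -0.08. Against 10 mg/kg rather than saline, the count of positive UGT genes was 11 with that animal and 6 without it.

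**Figure D2:**
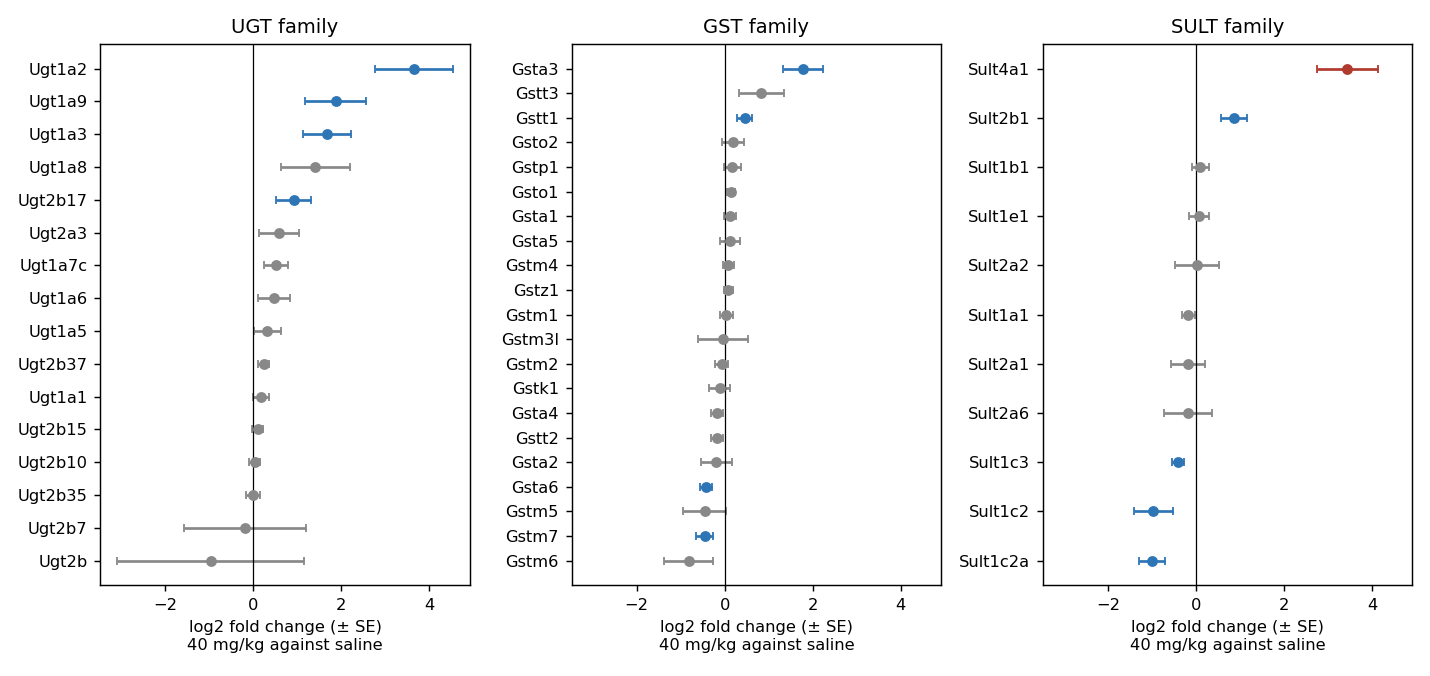
Log2 fold change of each tested member at 40 mg/kg against saline with its SE, by family, from edgeR's quasi-likelihood test over all genes. Red marks the adjusted p under 0.05 (Sult4a1), blue an unadjusted p under 0.05 and grey the rest. The UGT points reach highest at Ugt1a2 (3.64), and the GST and SULT points lie between -0.99 and 0.86 apart from Gsta3 (1.78) and Sult4a1 (3.44).

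The Ugt1a genes conjugate bilirubin, phenols and many drugs. Ugt1a2 (gene 396527) rose with dose from a level near 0. Its levels were 0.19, 0.19, 0.16 and 0.09 TPM in saline replicates 1 to 4 and 0.00, 0.24, 0.01 and 0.31 TPM at 10 mg/kg. They were 0.77, 0.18, 2.05 and 0.43 TPM at 20 mg/kg and 2.93, 0.25, 2 and 3.42 TPM at 40 mg/kg. Replicates 1, 3 and 4 at 40 mg/kg stood far above every saline and 10 mg/kg animal, while replicate 2, at 7.04 estimated reads, lay barely above the highest saline animal, at 5.61 reads, and below 1 animal at 10 mg/kg, at 8.70 reads. A linear trend over dose, expressed as the log2 change from saline to 40 mg/kg, was 3.92 (SE 0.788, adjusted p = 0.0194). Its size depended on the setting, from 1.31 to 4.18 over the alternatives other than removals. For this trend 2 of the 48 members changed, Ugt1a2 and Gsta3, both upward, where 2.91% of all genes changed and 1.28% rose. The trend of Ugt1a2 was called in 15 of 16 fits that each left out 1 library, and not without xylazine 40 replicate 4 (adjusted p = 0.0637). At 40 mg/kg against saline its log2 fold change of 3.64 (SE 0.892) had an adjusted p of 0.0634 and was not called. In the fit without xylazine 40 replicate 4 this log2 fold change was 3.33 (adjusted p = 0.153). The level at 40 mg/kg was then 1.73 ± 1.36 TPM (n = 3).

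Ugt1a3 (gene 396551) lay the same way as Ugt1a2 without being called. It stood at 0.30, 0.19, 0.10 and 0.38 TPM in saline and at 1.08, 0.78, 0.58 and 0.84 TPM at 40 mg/kg, with no overlap (trend 1.70, SE 0.484, adjusted p = 0.0613). Ugt1a9 (gene 396552) stood at 0.50, 3.23, 0.94 and 0.95 TPM in saline and at 4.43, 8.77, 3.61 and 4.73 TPM at 40 mg/kg, again with no overlap. Its log2 fold changes of 1.79, 1.83 and 1.87 at 10, 20 and 40 mg/kg (SE 0.692, 0.691 and 0.690) were nearly equal, with adjusted p = 0.999, 0.465 and 0.198. Saline replicate 2 was the 1 saline animal above 1 TPM. The abundant members of the locus had smaller estimates. Ugt1a1, which conjugates bilirubin, had 169 ± 20.1 TPM in saline and 202 ± 48.4 TPM at 40 mg/kg (log2 0.18, SE 0.187, adjusted p = 0.693). Ugt1a5 had 61.6 ± 13.5 and 81.3 ± 29.4 TPM, and Ugt1a6, an enzyme of small planar phenols, had 40.2 ± 6.64 and 59.0 ± 36.2 TPM (adjusted p = 0.671 and 0.579). Ugt1a7c and Ugt1a8 had log2 fold changes of 0.51 and 1.41 (adjusted p = 0.376 and 0.399). All 8 Ugt1a genes were positive at 40 mg/kg, and 7 without xylazine 40 replicate 4, where Ugt1a6 had a log2 fold change of -0.05 and 41.1 ± 6.82 TPM (n = 3). Their summed level was 283 ± 20.1, 329 ± 38.9, 321 ± 43.5 and 366 ± 111 TPM over the rising doses, and 311 ± 22.3 TPM at 40 mg/kg without that animal. Without it Ugt1a1 had 183 ± 34.6 TPM and Ugt1a5 66.8 ± 6.10 TPM. Because they share their last exons, reads there were divided between genes by estimation. Estimated counts that were not whole numbers (by more than 0.005) occurred in 14 of the 16 UGT genes tested, 6 of 11 SULT genes and 4 of 21 GST genes, against 12.2% of all genes, so single Ugt1a values are uncertain.

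**Figure D3:**
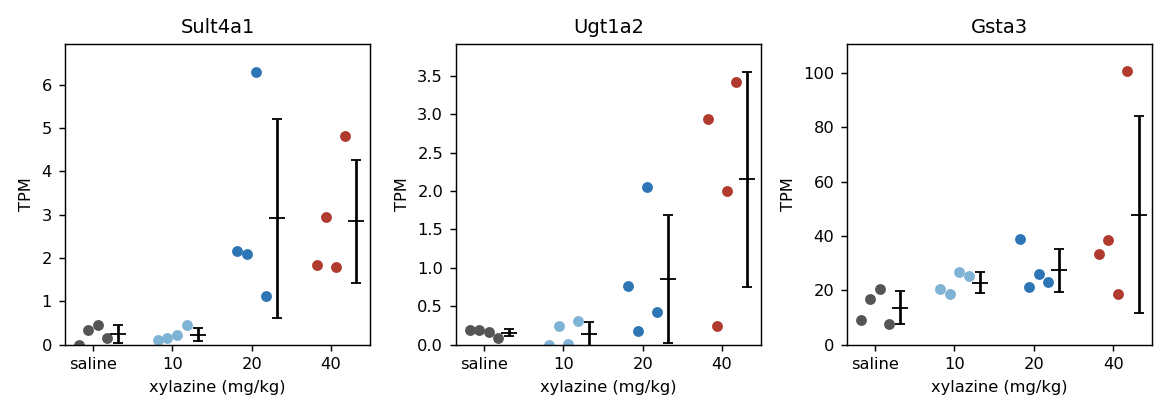
TPM of the 3 members that passed in any comparison, per animal (points) with the group mean and SD (bars). Sult4a1 is near 0 in saline and at 10 mg/kg and above 1 TPM in all 8 animals at 20 and 40 mg/kg, Ugt1a2 is at or above 2 TPM in 3 animals at 40 mg/kg and 1 at 20 mg/kg, and Gsta3 reaches 101 TPM in xylazine 40 replicate 4.

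The Ugt2b genes conjugate steroids, bile acids and drugs, and they supplied most UGT transcripts. The gene listed as Ugt2b (gene 24862), for which RefSeq gives Ugt2b2 as a synonym, was either high or nearly silent. It stood at 1250.4, 1347, 2313 and 7.41 TPM in saline replicates 1 to 4 and at 1578, 12.1, 17.5 and 1183 TPM at 10 mg/kg. It stood at 1164, 1517, 13.7 and 9.56 TPM at 20 mg/kg and at 16.8, 16.5, 16.4 and 2595 TPM at 40 mg/kg. The 8 high animals, 3, 2, 2 and 1 over the rising doses, were all at or above 1164 TPM, and the other 8 were at or below 17.5 TPM. The gap between the sides was 5.98 on the log2(TPM + 1) scale, the third widest of 12732 genes. The dose groups overlapped, and the log2 fold change at 40 mg/kg was -0.97 with an SE of 2.13 (adjusted p = 0.876), and -6.25 (adjusted p = 0.313) without replicate 4 of that group. Ugt2b7 (gene 286989) was highest in the same 8 animals, between 0.22 and 2.84 TPM, against at most 0.13 TPM in the others. Promoter windows of Ugt2b and Ugt2b37 were 66.4% identical and those of Ugt2b15 and Ugt2b37 88.8%, where those of Ugt2b and Ugt1a1 were 54.4% identical. These windows lie outside the transcripts. Estimated counts of Ugt2b, Ugt2b15 and Ugt2b37 were not whole numbers in 13 libraries each, and how reads were shared among such copies is uncertain.

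**Figure D4:**
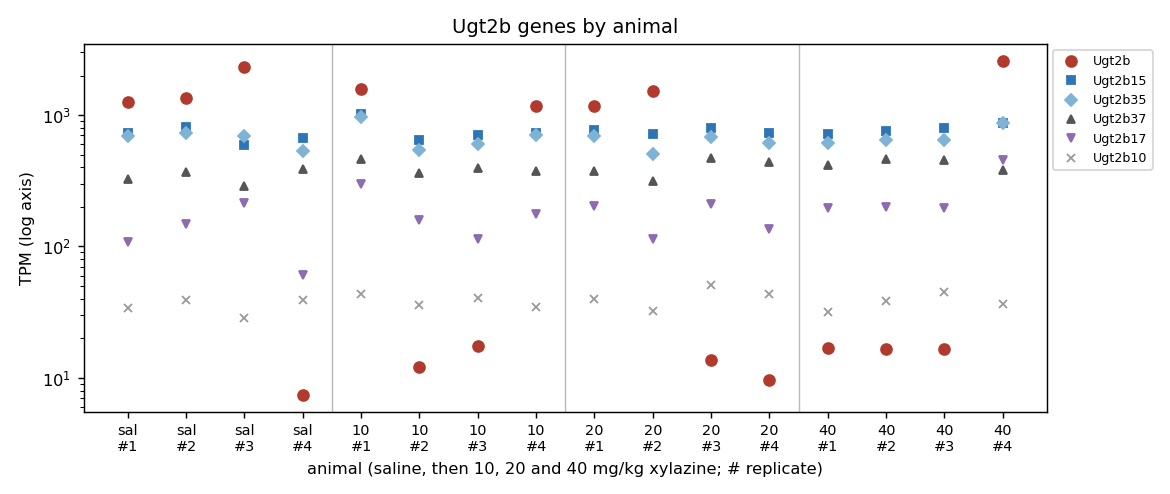
TPM (log axis) of the 6 most abundant Ugt2b genes in each of the 16 animals, ordered by dose group and replicate. The gene Ugt2b (red) lies either at 1164 TPM and above or at 17.5 TPM and below, while the other 5 genes vary far less.

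The remaining Ugt2b genes varied less. Ugt2b15 had 697 ± 90.7 TPM in saline and 786 ± 61.8 TPM at 40 mg/kg, and Ugt2b35 had 664 ± 88.6 and 694 ± 117 TPM (log2 0.09 and -0.01, adjusted p = 0.766 and 0.981). Ugt2b37 had 344 ± 45.6 and 428 ± 35.4 TPM (log2 0.24, SE 0.121, adjusted p = 0.355). Ugt2b10 had a log2 fold change of 0.03 (adjusted p = 0.943). Ugt2b17 had 133 ± 64.8 TPM in saline and 264 ± 130 TPM at 40 mg/kg (log2 0.91, SE 0.406, adjusted p = 0.287), and its values at 40 mg/kg were 198, 201, 197 and 458 TPM. Without the last of these they were 199 ± 2.05 TPM (log2 0.51, adjusted p = 0.606). Ugt2a3 had 46.3 ± 20.2 and 72.7 ± 39.2 TPM, with xylazine 40 replicate 4 again apart at 131 TPM (adjusted p = 0.582), and 53.3 ± 6.48 TPM without it.

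Among the glutathione transferases the alpha class, which detoxifies products of lipid peroxidation, held the 1 member that rose. Gsta3 (gene 494500), for which RefSeq gives Gsta5 and Yc2 as synonyms although the table also has a separate Gsta5, stood at 9.29, 16.9, 20.6 and 7.76 TPM in saline. It stood at 20.6, 18.6, 26.9 and 25.3 TPM at 10 mg/kg and at 38.9, 21.4, 26.2 and 23.0 TPM at 20 mg/kg. At 40 mg/kg it stood at 33.2, 38.6, 18.7 and 101 TPM. All 4 animals at 20 mg/kg lay above all saline animals, whereas replicate 3 at 40 mg/kg lay within the saline range and replicate 4 stood alone above the rest. The trend was 1.64 (SE 0.409, adjusted p = 0.0444), and the log2 fold change at 40 mg/kg was 1.78 (SE 0.461, adjusted p = 0.0769). The call of the trend rested on single libraries. It was kept in 3 of 16 removals, those of saline replicate 3, xylazine 10 replicate 4 and xylazine 40 replicate 3, and without xylazine 40 replicate 4 the trend was 0.997 (adjusted p = 0.196).

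No other alpha-class gene passed. Gsta6 (gene 501110) stood at 16.1, 18.4, 13.5 and 15.1 TPM in saline and at 14.2, 13, 11.9 and 10.3 TPM at 40 mg/kg. In TPM these groups met between 13.5 and 14.2, but in CPM the 4 treated animals lay below the saline animals (log2 -0.43, SE 0.131, adjusted p = 0.113). Gsta2, Gsta1 and Gsta5, the abundant members, had log2 fold changes of -0.19, 0.13 and 0.13 (adjusted p = 0.841, 0.686 and 0.834). Gsta2 alone ran from 1315 to 3566 TPM between animals. Gsta4, which conjugates 4-hydroxynonenal, had 276 ± 29.1 TPM in saline and 257 ± 20.7 TPM at 40 mg/kg (adjusted p = 0.579).

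In the mu class, Gstm1 had 2248.5 ± 76.6 TPM in saline and 2432 ± 328 TPM at 40 mg/kg, and Gstm2 had 2213 ± 176 and 2167 ± 285 TPM (adjusted p = 0.930 and 0.881). Gstm7 (gene 81869) had 93.5 ± 14.1 TPM in saline and 71.7 ± 5.2 TPM at 40 mg/kg, with log2 -0.46 (SE 0.190, adjusted p = 0.242) and no overlap. The 4 other mu-class genes tested, Gstm3l, Gstm4, Gstm5 and Gstm6, had log2 fold changes between -0.82 and 0.09. The theta class, which acts on small halogenated molecules, summed to 257 ± 51.6 TPM in saline and to 374 ± 58.9 TPM at 40 mg/kg. Gstt1 (gene 25260) stood at 67.2, 82.9, 84.0 and 75.5 TPM in saline and at 143, 121, 82.5 and 103 TPM at 40 mg/kg, with log2 0.45 (SE 0.166, adjusted p = 0.185). Replicate 3 at 40 mg/kg lay within the saline range. Gstt3 ran from 53.1 to 251 TPM between animals, with its widest gap between 112 and 164 TPM. That gap was 0.54 on the log2(TPM + 1) scale and ranked 668 of 12732 genes. Of the 8 animals above it, 1, 2, 2 and 3 belonged to the groups of rising dose (adjusted p of Gstt3 at 40 mg/kg 0.457). Gstt2 had 81.0 ± 6.42 and 76.0 ± 18.8 TPM. Members with 1 or 2 genes per class also did not pass. Gstz1, the maleylacetoacetate isomerase of tyrosine breakdown, had 391 ± 13.4 and 438 ± 22.1 TPM. Gsto1 had 153 ± 16.6 and 178 ± 12.4 TPM, Gstk1 147 ± 32.1 and 142 ± 28.9 TPM, Gstp1 17.4 ± 4.05 and 20.4 ± 4.22 TPM, and Gsto2 0.823 ± 0.245 and 0.917 ± 0.147 TPM (adjusted p between 0.464 and 0.868 for these 5). Gstp1, a marker of preneoplastic foci in rat liver, had a log2 fold change of 0.17 (SE 0.185).

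Among the sulfotransferases Sult4a1 (gene 58953), a member best known from brain, rose at 40 mg/kg. It stood at 0.00, 0.35, 0.46 and 0.16 TPM in saline and at 0.12, 0.15, 0.22 and 0.45 TPM at 10 mg/kg. It stood at 2.16, 2.09, 6.29 and 1.13 TPM at 20 mg/kg and at 1.84, 2.94, 1.80 and 4.82 TPM at 40 mg/kg. All 8 animals at the upper doses lay above all 8 at the lower ones, on 26 to 156 estimated reads against 0 to 13. At 40 mg/kg the log2 fold change against saline was 3.44 (SE 0.696, adjusted p = 0.0323), and against 10 mg/kg it was 3.58 (SE 0.710, adjusted p = 0.0458). In that latter comparison Sult4a1 was the 1 of 48 members that changed, where 0.361% of all genes changed and 0.110% rose. At 20 mg/kg the log2 fold change was the same size, 3.46 (SE 0.696), with an adjusted p of 0.193 in a comparison that called no gene. The linear trend was 3.53 (SE 0.966, adjusted p = 0.0590). The call at 40 mg/kg against saline was kept in 10 of 16 removals of a library, with adjusted p up to 0.0929, and was lost without saline replicate 1, 2 or 4 or xylazine 40 replicate 2, 3 or 4. In the fit without xylazine 40 replicate 4 this log2 fold change was 3.05 (adjusted p = 0.0896). The level at 40 mg/kg was then 2.19 ± 0.647 TPM (n = 3). The call against 10 mg/kg was kept in 5 of 16, those of saline replicates 1, 3 and 4 and of xylazine 20 replicates 3 and 4.

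Some genes beside Sult4a1 were also high in the same dose groups. In the RefSeq order of build GRCr8, Pnpla5, Pnpla3, Samm50 and Parvb follow it on 1 side. Pnpla3, a lipid droplet protein with lipase activity, stood at 5.22, 5.62, 16.8 and 11.6 TPM in saline and at 56.4, 89.2, 45.4 and 161 TPM at 40 mg/kg. Its log2 fold changes at 10, 20 and 40 mg/kg were 0.13, 3.06 and 3.07, and it rose at 40 mg/kg (SE 0.601, adjusted p = 0.0332), as Parvb (1.09, SE 0.140, adjusted p = 0.00446) and Samm50 (0.36, SE 0.0831, adjusted p = 0.0491) did. Pnpla5 had 2.37 (SE 0.676, adjusted p = 0.101). On the other side Efcab6 and Scube1 were too low to be tested, Mpped1 had -3.38 (SE 1.10, adjusted p = 0.139) and Ttll12 had -0.08 (adjusted p = 0.801). The strand of the reads is not given in the sources used here, and whether reads of neighbouring genes entered the Sult4a1 count was not tested.

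**Figure D5:**
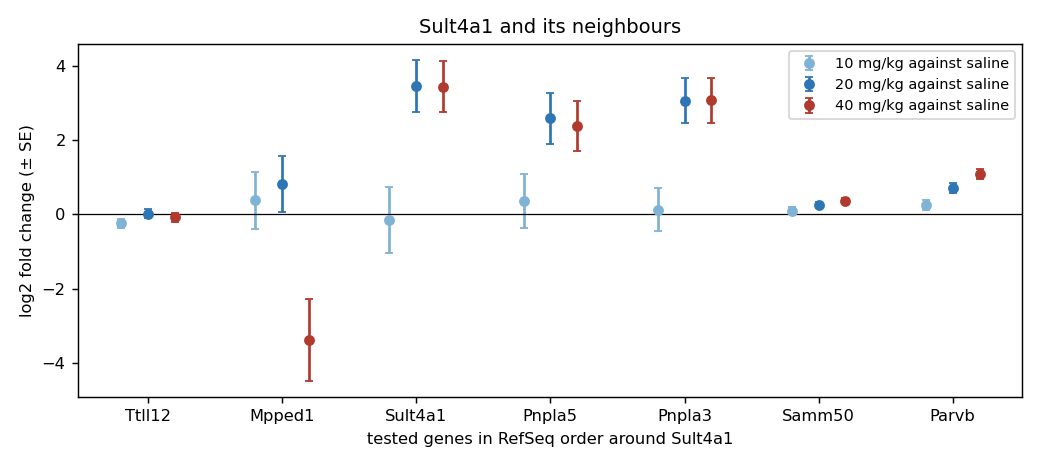
Log2 fold change with SE against saline at 10, 20 and 40 mg/kg for Sult4a1 and its tested neighbours in RefSeq order (edgeR). Sult4a1, Pnpla5 and Pnpla3 are near 0 at 10 mg/kg and between 2.37 and 3.46 at 20 and 40 mg/kg, Samm50 and Parvb are lower and positive, and Ttll12 is near 0.

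The Sult1c genes lay lower with xylazine without passing. Sult1c2a (gene 316153) stood at 55.3, 34.1, 62.4 and 68.3 TPM in saline and at 39.6, 16.8, 35.4 and 26.0 TPM at 40 mg/kg. Saline replicate 2 overlapped the treated animals. Its log2 fold changes were -0.67, -0.75 and -0.99 over the rising doses (SE 0.290, 0.290 and 0.291), with adjusted p = 0.999, 0.467 and 0.109. Sult1c2 (gene 171072), a gene of the same class at a far lower level, had 2.92 ± 1.23 TPM in saline and 1.61 ± 0.968 TPM at 40 mg/kg (log2 -0.97, SE 0.436, adjusted p = 0.290). Estimated counts were not whole numbers in 16 libraries for Sult1c2 and in 15 for Sult1c2a. Their reads may have been shared, so the 2 genes may not be separate observations. Sult1c3 (gene 65185) stood at 474, 506, 498 and 575 TPM in saline and at 426, 392, 506 and 306 TPM at 40 mg/kg. Replicate 3 at 40 mg/kg reached the saline range, and the difference was -0.41 on the log2 scale (SE 0.129, adjusted p = 0.123). Sult2b1 (gene 292915), which sulfates cholesterol, stood at 1.31, 0.45, 0.67 and 0.61 TPM in saline and at 1.82, 1.29, 1.28 and 1.45 TPM at 40 mg/kg (log2 0.86, SE 0.293, adjusted p = 0.156). Only saline replicate 1 reached the treated range.

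The abundant sulfotransferases did not pass at any dose. Sult1e1 had 1888 ± 189 TPM in saline and 2079 ± 614 TPM at 40 mg/kg (log2 0.07, SE 0.222, adjusted p = 0.926), and its 40 mg/kg values of 2242, 2413, 2489 and 1171 TPM had replicate 4 lowest. Sult1a1 had 769 ± 123 and 712 ± 124 TPM, and Sult1b1, which acts on thyroid hormones, had 387 ± 107 and 433 ± 101 TPM (adjusted p = 0.585 and 0.867). Sult2a1, which sulfates bile acids and hydroxysteroids, had 803 ± 242 and 745 ± 98.3 TPM (log2 -0.19, SE 0.385, adjusted p = 0.864). Sult2a6 and Sult2a2 had log2 fold changes of -0.19 and 0.02. The promoter windows of Sult2a1 and Sult2a6 were 98% identical. Estimated counts of both genes were not whole numbers in any of the 16 libraries, and their reads may have been shared.

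At 10 mg/kg against saline no transferase changed by edgeR's quasi-likelihood test, as was so of all genes tested (0% called), and DESeq2, limma-voom and limma on log2 TPM called none of the members either. At an unadjusted p under 0.05 there were 2 members, Ugt1a9 higher and Sult1c2a lower, where 4% of all genes reached it. At 20 mg/kg edgeR called none of the members or of all genes (0% called), and DESeq2 called 1, Sult4a1. At an unadjusted p under 0.05 there were 5, with Sult4a1, Ugt1a2 and Ugt1a9 higher and Sult1c2 and Sult1c2a lower, where 9.13% of all genes reached it. The 3 dose comparisons share the saline animals, and the doses were not set against each other except 40 with 10 mg/kg.

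Genes that supply and carry conjugates were read from lists beside the transferases, some of which share genes, as Gclc, Abcc3 and Abcc4 stand in the NRF2 list too. Of all genes tested, 0.471% rose and 0.636% fell at 40 mg/kg, and 1.28% rose and 1.63% fell with the trend. Of 21 genes of glutathione synthesis and turnover tested, 1 rose with the trend, where 1.28% of all genes did, and none fell. It was Gclc, the catalytic subunit of the rate-limiting step, which went from 49.1 ± 2.75 TPM in saline to 85.8 ± 22.8 TPM at 40 mg/kg (trend 0.76, SE 0.153, adjusted p = 0.0189). Of 11 genes of sulfate supply, 2 fell with the trend, where 1.63% of all genes did, and none rose. Papss2, which makes the sulfate donor PAPS, went from 61.5 ± 7.46 to 43.8 ± 5.05 TPM (trend -0.56, SE 0.137, adjusted p = 0.0356). Cdo1, which starts the oxidation of cysteine towards sulfate, went from 1208 ± 37.9 to 973 ± 113 TPM (trend -0.44, SE 0.104, adjusted p = 0.0307). None of 8 genes of UDP-glucuronate supply passed, and Ugdh, which makes UDP-glucuronic acid, had a trend of -0.34 (SE 0.127, adjusted p = 0.151). Of 28 other conjugating enzymes Nnmt, which methylates nicotinamide, alone fell at 40 mg/kg (-0.71, SE 0.163, adjusted p = 0.0475), and of 7 deconjugating enzymes none passed.

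Among 12 exporters, Abcc4 and Abcc3, which carry conjugates into blood, rose with dose (trends 0.63 and 1.27, SE 0.157 and 0.313, adjusted p = 0.0395 and 0.0379). Abcb1b fell (trend -2.43, SE 0.583, adjusted p = 0.0366). These exporters were low, with 1.61 ± 0.15 (Abcc4), 0.89 ± 0.23 (Abcc3) and 1.64 ± 0.998 TPM (Abcb1b) in saline. At 40 mg/kg they had 2.76 ± 0.60, 2.28 ± 1.65 and 0.355 ± 0.275 TPM in the same order. Of 9 uptake carriers 1 fell, the organic anion carrier Slc22a8 (trend -0.57, SE 0.123, adjusted p = 0.0225). Of 19 xenobiotic receptors and partners none passed at 40 mg/kg or for the trend. Of 18 known NRF2 target genes 15 had a log2 fold change above 0 at 40 mg/kg (median 0.35), and Me1, Abcc4 and Tkt rose (0.471% of all genes did), while 5 rose with the trend (1.28% of all genes did). At 10 and at 20 mg/kg 15 of the 18 NRF2 targets also lay above 0 (medians 0.12 and 0.17). Of 15 known CAR and PXR targets 11 lay above 0 at 40 mg/kg (median 0.28), and Aldh1a1 alone rose (1.78, SE 0.379, adjusted p = 0.0440). At 10 and 20 mg/kg 12 and 7 of these 15 lay above 0 (medians 0.40 and -0.01). The 4 AHR targets tested lay below 0 at 40 mg/kg (median -0.54) without passing, Cyp1a2 among them (-0.85, SE 0.320, adjusted p = 0.203). All 4 lay above 0 at 10 mg/kg (median 0.21), and 1 of the 4 did at 20 mg/kg (median -0.40). Among phase I oxidoreductases outside the P450 family, Fmo1 fell at 40 mg/kg (-0.87, SE 0.166, adjusted p = 0.0240). Of 21 genes biased between male and female rat liver none passed.

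Marker lists of other liver cells were read from the same fit. The 10 mesothelial markers each had a log2 fold change above 0 at 40 mg/kg (median 1), none passed, and their summed level ran between 109 and 131 CPM without xylazine and, with 40 mg/kg, between 119 and 202 CPM, highest in replicate 4. The 10 proliferation markers lay above 0 at 10 mg/kg (median 0.94) and below 0 at 40 mg/kg (median -1.12) with none passing, and their sums ran between 8.56 and 31.7 CPM with saline, between 21.4 and 77.1 CPM with 10 mg/kg and between 8.26 and 14.5 CPM with 40 mg/kg. The 7 erythroid markers tested lay below 0 at 10 mg/kg (median -0.57) and above 0 at 40 mg/kg (median 0.23), and none passed. Of 10 periportal markers 2 fell, where 0.636% of all genes did, and 8 in all were negative (median -0.09). Their sum ran between 3936 and 5931 CPM with saline and between 2944 and 4328 CPM with 40 mg/kg. Of 10 pericentral and 10 general hepatocyte markers 7 each were negative at 40 mg/kg (medians -0.17 and -0.08), and none passed there. With the trend 1 pericentral marker rose and 1 hepatocyte marker fell, where 1.28% and 1.63% of all genes did. Of 10 stellate cell markers 9 lay above 0 at 40 mg/kg (median 0.31) with none passing there, and 1 rose with the trend. All lists overlapped between saline and 40 mg/kg in their sums, and no list had a marker at 0 in every library. Their part in the transferase results was not tested.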

How the data were processed

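Liver messenger RNA of 16 male SD rats was sequenced, 4 per dose group, and all 4 kinds of value in the deposited table were checked against each other. The tools named, per the submitters' processing notes, were RSEM, Bowtie2 and DESeq2 with build mRatBN7.2, and versions, roles and strandedness are not given in the sources used here. The values deposited by the authors were expected counts of reads per gene, TPM, FPKM and a normalized signal. That signal equalled the expected counts rounded up and multiplied by 1 factor per library, and it was not tested. Expected counts were rounded, and genes were kept by filterByExpr (minimum count 10, total 15). They were scaled by TMM and tested with edgeR 4.0.16 (quasi-likelihood, robust, all 16 samples, R 4.3.3) with Benjamini-Hochberg adjustment over 12732 genes. The linear trend used dose in mg/kg as a number. Deposited TPM values describe levels. Alternatives used DESeq2 1.42.0 and limma 3.58.1, other scalings, filters and pseudocounts (1 and 0.1), a replicate block and the removal of each library. The scripts were tested on simulated data. Replicates are separate animals, and p-values measure only the spread between them. Library totals of 16059922 to 16956867 reads leave genes under 1 TPM on few reads, and no 2 libraries were identical. Members that passed in any comparison, the 5 smallest p per comparison and up to 3 most abundant per class were named, and from the other lists those that passed or the smallest p at 40 mg/kg, with the rest named to account for every member. The neighbours of Sult4a1 were named after its values were seen. The members, lists and tests were chosen with earlier results of these data known. From the list of phase I oxidoreductases, 1 result is not reported here.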

Additional observations from a re-analysis of the deposited data

Results flagged for a closer look

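In 12 of 133 groups of 4 animals tested, 1 animal stood apart from the other 3 in TPM by Dixon's criterion, and chance alone flags about 1 in 20 groups. Of these animals 5 were xylazine 40 replicate 4. It had Ugt2b at 2595 TPM where the others had 16.4 to 16.8, Ugt2b35 at 867 (612 to 650), Ugt2a3 at 131 (46.8 to 59.7), Ugt1a6 at 113 (36.2 to 48.9) and Gsta1 at 1879 (1312 to 1390). At 10 mg/kg, replicate 4 had Gsta1 at 1303 TPM (1153 to 1171) and Gstk1 at 183 (95.9 to 104), replicate 2 had Gsta5 at 939 (1236 to 1280.1) and Gstt1 at 112 (84.5 to 86.9), and replicate 1 had Sult1e1 at 2533 (1668 to 1774). In saline, replicate 3 had Gstt3 at 178 TPM (67.3 to 76.2) and replicate 2 had Ugt1a9 at 3.23 (0.50 to 0.95).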

How the results depend on the processing

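Counts of transferases that passed changed with the settings. With DESeq2 they were 1 at 20 mg/kg and 5 at 40 mg/kg against saline, 2 at 40 against 10 mg/kg and 7 for the trend, in place of 0, 1, 1 and 2, where DESeq2 called 0.471%, 4.11%, 2.39% and 5.91% of all genes. With limma-voom they were 0 at 40 mg/kg against saline and 0 against 10 mg/kg. A filter of at least 5 CPM in 4 libraries gave 0, 0 and 1 for 40 mg/kg against saline, against 10 mg/kg and the trend, since it left Sult4a1 and Ugt1a2 untested, and no filter gave 0 against 10 mg/kg and 1 for the trend. Total count scaling gave 0 against 10 mg/kg, a fit of the 2 groups alone gave 0 at 40 mg/kg against saline, and limma on log2(TPM + 1) and on log2(TPM + 0.1) each gave 4 for the trend. An adjusted p under 0.1 gave 3, 2 and 8. Removal of single libraries gave 0 to 0 at 10 and at 20 mg/kg, 0 to 2 at 40 mg/kg against saline, 0 to 1 against 10 mg/kg and 0 to 3 for the trend. For the other settings the cause was not tested. Without xylazine 40 replicate 4, chosen after seeing the data, positive UGT genes against 10 mg/kg were 6 in place of 11 and positive SULT genes against saline 3 in place of 5.

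Replicate numbers gave no sign of pairing the animals, which these correlations cannot exclude. The median correlation of same-numbered deviations was -0.00575, and 3 of 24 exceeded 0.1. For animals with different numbers the median was -0.00216, and 10 of 72 exceeded 0.1. With the replicate block 1 transferase passed at 40 mg/kg against saline, 0 against 10 mg/kg and 1 for the trend. The 4 called gene results kept their call in 33 of 64 removals. Of all 27 gene results, most of them never called, none reversed. All 90 alternatives for the summed levels stayed within 1 SD, the pooled SD between animals of the log2 sums. That limit was wide for UGT, whose sums ran from 2001 TPM in saline to 5870 TPM at 40 mg/kg. For UGT it could therefore hardly be exceeded and says little about stability. Depth limits Ugt1a2, Ugt1a3, Sult4a1 and the other genes below 1 TPM in saline.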
